A study of Mus musculus with 12 samples.

Results

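The matrix metalloproteases (Mmp genes), the ADAMTS proteases (Adamts genes) and the tissue inhibitors of metalloproteases (Timp genes) were followed through 12 subcutaneous mouse tumours. Members were taken by symbol, as Mmp, Adamts or Timp followed by a number and an optional a or b. Of 46 symbols that matched, 44 had any count, among 24312 genes with any count, and Mmp20 and Mmp21 were at 0 counts in all 12 libraries. The tumours grew from 4T1, a mouse line of triple-negative breast cancer, injected under the skin of the back of female BALB/c mice aged 6 to 8 weeks. Each library came from 1 tumour of a different mouse, with n = 3 in each group. Group MC lived at ambient altitude, about 1500 m, and received vehicle. Group MI lived at the same altitude and received IOX2, an inhibitor of the oxygen-sensing prolyl hydroxylase PHD2, at 10 mg/kg each day for 10 days from day 9 after inoculation. Group HC was kept in a hypobaric chamber set to 3500 m and received vehicle, and group HI was kept there and received IOX2. Mice spent 3 days in their condition before inoculation, and tumours were taken on study day 22. No ambient mouse was housed in a chamber, so altitude and chamber housing cannot be told apart.

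Metalloproteases of the MMP family use a zinc ion to cut collagens, gelatin, elastin and other matrix proteins, and most are secreted as inactive precursors that other proteases activate. ADAMTS proteases are secreted relatives that cut proteoglycans such as aggrecan and versican, trim procollagen, or cut von Willebrand factor. TIMPs bind the active site of these enzymes and block it. In tumours the enzymes are made by cancer cells, fibroblasts, macrophages, neutrophils and vessel cells, and they are known for matrix remodelling, release of growth factors and vessel growth.

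Library totals ran from 31661685 (HC1) to 40019343 counts (MI2), and the members took 0.312% to 0.467% of the counts of a library. Mitochondrial genes took 1.61% to 2.96%. Epithelial tumour markers, which define the labelled tissue, were present in all libraries, with 6 of 6 above 0 counts and a summed level of 2938 to 4016 CPM (counts scaled to the size of each library, with TMM factors). Of the 44 members, 38 passed the filter on low counts. Timp4 passed it through HC and HI libraries alone. Mmp1b reached the filter's level in 1 ambient library and 6 chamber libraries, Mmp27 in 2 and 4, and Mmp24 in 1 and 2. Counts over the 38 are therefore descriptions. In bulk tumour RNA, a change in the number of cells of a type and a change in RNA per cell cannot be told apart.

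On a per-length scale, a few genes made up most of the family's RNA. FPKM (fragments scaled to gene length and library size) was highest for Mmp9, a gelatinase of neutrophils, macrophages and tumour cells, at 223 ± 75.5 in MC and 275 ± 54.4 in MI, and at altitude 272.5 ± 64.3 in HC and 236 ± 80.7 in HI (SD, n = 3 each). Next came Mmp14, a membrane-anchored collagenase that activates the precursor of Mmp2, at a mean of 172 FPKM over the 12 libraries. Timp2, the inhibitor that takes part in that activation, was at 166 FPKM, and the collagenase gene Mmp13 at 139.5 FPKM. The order of Mmp14 and Timp2 varied by group. Mmp14 was at 187 ± 5.35 FPKM and Timp2 at 175 ± 3.41 in MC, against 159 ± 3.38 and 169 ± 5.94 in HC. In MI they were at 174 ± 16.7 and 151 ± 15.3 FPKM, and in HI at 167 ± 15.4 and 168 ± 11.3. These 4 genes held 61.7% of the summed member FPKM.

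Behind them were Timp1 (104 FPKM), the stromelysin Mmp3 (94.6), the gelatinase Mmp2 (51.9), the macrophage elastase Mmp12 (41.6), the stromelysins Mmp10 (33.3) and Mmp11 (23.2), and Timp3 (19.5), as means over 12 libraries. The first 10 members together held 91.2% of the family's FPKM. ADAMTS genes were lower. Their highest means were 12.0 FPKM for the aggrecan- and versican-cutting Adamts4, 10.6 for Adamts2, which trims procollagen, and 8.35 for Adamts1. At the low end, 6 members did not pass the filter. In these, counts per library were 0 to 1 for the matrilysin Mmp7, 1 to 11 for Mmp16, 0 to 13 for Adamts20, 0 to 9 for Adamts13, 0 to 5 for Adamts18 and 0 to 8 for Adamts19. A count of 0 allows up to 3 counts, or 0.0728 to 0.0917 CPM depending on the library, and covers counting error only. Adamts13 cuts von Willebrand factor and is known mainly from the liver.

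**Figure D1:**
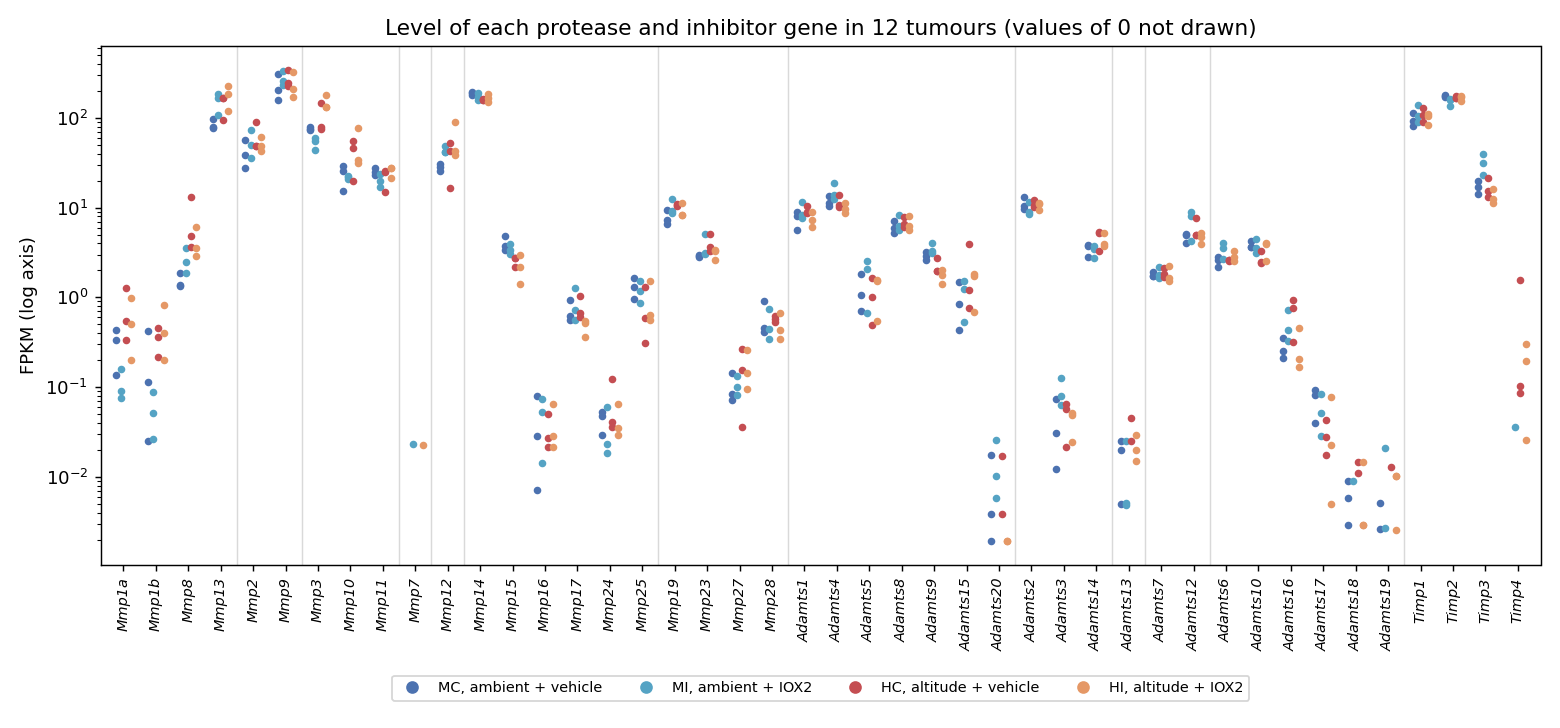
FPKM (log axis) of the 44 members in each of the 12 tumours, grouped by role along the horizontal axis and coloured by group; each point is 1 tumour and values of 0 are not drawn. Mmp9, Mmp14, Timp2 and Mmp13 stand at the top, and no ADAMTS gene exceeds 18.8 FPKM in any tumour.

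The summed FPKM of the MMP genes was 707 ± 100 in MC and 818 ± 98.8 in MI, and at altitude 865 ± 97.8 in HC and 932 ± 201 in HI. TIMP sums were 288 ± 15.6, 294 ± 39.5, 295 ± 18.1 and 280 ± 14.7 in the same order. The ratio of these sums was 2.23 to 2.86 in MC libraries and 2.68 to 4.25 in HI libraries, with HI1 highest. The ranges overlapped, and no test was made on these sums.

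Averaged over treatment, 2 members differed between chamber and ambient tumours. Adamts9, a protease that cuts aggrecan and versican, fell, and Mmp3, a stromelysin that cuts many matrix proteins and activates other MMPs, rose. That is 2 of 38 members called at an adjusted p under 0.05, against 0.498% of the 15269 genes tested, 0.236% higher and 0.262% lower (edgeR's quasi-likelihood test with Benjamini-Hochberg adjustment over all genes). A further 12 members had an unadjusted p under 0.05, which makes 8 higher and 6 lower, against 8.64% and 8.65% of all genes (17.3% in either direction). DESeq2 called 10 members, 6 higher and 4 lower, against 5.2% of the 16251 genes it gave an adjusted p. The median log2 change over the 38 members was 0.04, and over all genes -0.02.

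Adamts9 was at 22.9, 26.1 and 29.0 CPM in MC and 35.9, 28.5 and 30.0 in MI, and at altitude 23.8, 17.9 and 17.9 in HC and 13.2, 15.8 and 17.6 in HI. Every HI library lay below every other library, and HC1 alone among the chamber libraries reached the ambient range. The averaged log2 change was -0.71 (SE 0.11, adjusted p = 0.0389 by edgeR), a level 0.614 times that of ambient tumours. With vehicle the change was -0.39 (SE 0.15, adjusted p = 0.345 by edgeR), and with IOX2 it was -1.02 (SE 0.15, adjusted p = 0.0776 by edgeR). The difference between those effects, -0.63, had an unadjusted p = 0.0137 and an adjusted p = 0.596 by edgeR, so it did not pass.

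Mmp3 was at 132.6, 140.7 and 131.6 CPM in MC and 78.8, 105.7 and 107.5 in MI, and at altitude 131.9, 144 and 269 in HC and 336, 234 and 236 in HI. All HI libraries lay above all ambient libraries, while HC1 and HC2 lay within or close to the MC range and HC3 stood apart. The averaged log2 change was 0.95 (SE 0.17, adjusted p = 0.0445 by edgeR), a 1.93-fold higher level. With IOX2 the change was 1.47 (SE 0.25, adjusted p = 0.0903 by edgeR). With vehicle it was 0.43 (adjusted p = 0.527 by edgeR). The difference between the effects, 1.04 (SE 0.35), did not pass (adjusted p = 0.596 by edgeR).

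Both calls of the altitude average depended on single libraries. That of Adamts9 was lost without MC2, MC3, MI1, MI3, HC3, HI1 or HI2 (adjusted p = 0.0555 to 0.112 by edgeR), and that of Mmp3 without any one of MC1, MC2, MC3, MI1, MI3, HC1, HC3, HI1 and HI2 (adjusted p = 0.0503 to 0.141 by edgeR). The log2 changes themselves stayed at -0.78 to -0.65 and 0.75 to 1.04 over the 12 omissions.

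Marker genes of other cells moved beside these results. For Adamts9, which endothelium also expresses, the summed level of 6 endothelial markers was 299.8 to 310.5 CPM in MC and 296 to 401 in MI, and at altitude 266 to 332 in HC and 218 to 239 in HI. In the altitude average 6 of 6 had an unadjusted p under 0.05 and a lower estimate, against 8.65% of all genes. All 6 markers also had an unadjusted p under 0.05 and a lower estimate in HI against MI, against 8.43% of all genes. In HC against MC 0 of the 6 did, against 5.84% of all genes, and estimates lay below 0 for 4 and above 0 for 2. Vwf, an endothelial gene outside that list, went the other way, with an averaged log2 change of 0.78 (adjusted p = 0.0702 by edgeR). The part of endothelial cells in the result was not tested. For Mmp3, keratinocyte markers summed to 16.4 CPM in HC3 and 18.2 in HI1 and to 1.12 to 5.73 in the other 10 libraries, with Krt1 at 0 in 8 libraries. In HI2 and HI3 that sum was 1.38 and 1.67 CPM, and Mmp3 stood at 234 and 236 CPM there. Fibroblast markers summed to 6323 to 9421 CPM in MC and 7037 to 10450 in MI. At altitude they summed to 7178 to 12450 CPM in HC and 7420 to 7985 in HI. Estimates lay below 0 for 8 of 8 in HI against MI, 3 of 8 in HC against MC and 5 of 8 in the altitude average. Epithelial tumour markers summed to 3349 to 3505 CPM in MC and 2938 to 3312 in MI. At altitude their sums were 3650 to 4016 CPM in HC and 3375 to 3821 in HI. Their averaged estimates lay above 0 for 6 of 6, with 2 at an unadjusted p under 0.05, against 7060 above 0 of all 15269 genes. In the altitude average 5 of 5 mast cell markers were lower at an unadjusted p under 0.05, and Kit fell (log2 -0.61, adjusted p = 0.0401 by edgeR). The mast cell sum was 31.5 to 46.6 CPM in MC and 26.1 to 33.4 in MI, and at altitude 17.5 to 24.6 in HC and 17.7 to 32.1 in HI. At the same threshold 5 of 5 adipocyte markers were higher. Of 8 macrophage markers, 6 were lower and 1, Mrc1, was higher (log2 0.49). Among all genes, 8.64% were higher and 8.65% lower at that threshold. The part of these cells in the Adamts9 and Mmp3 values was not tested.

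**Figure D2:**
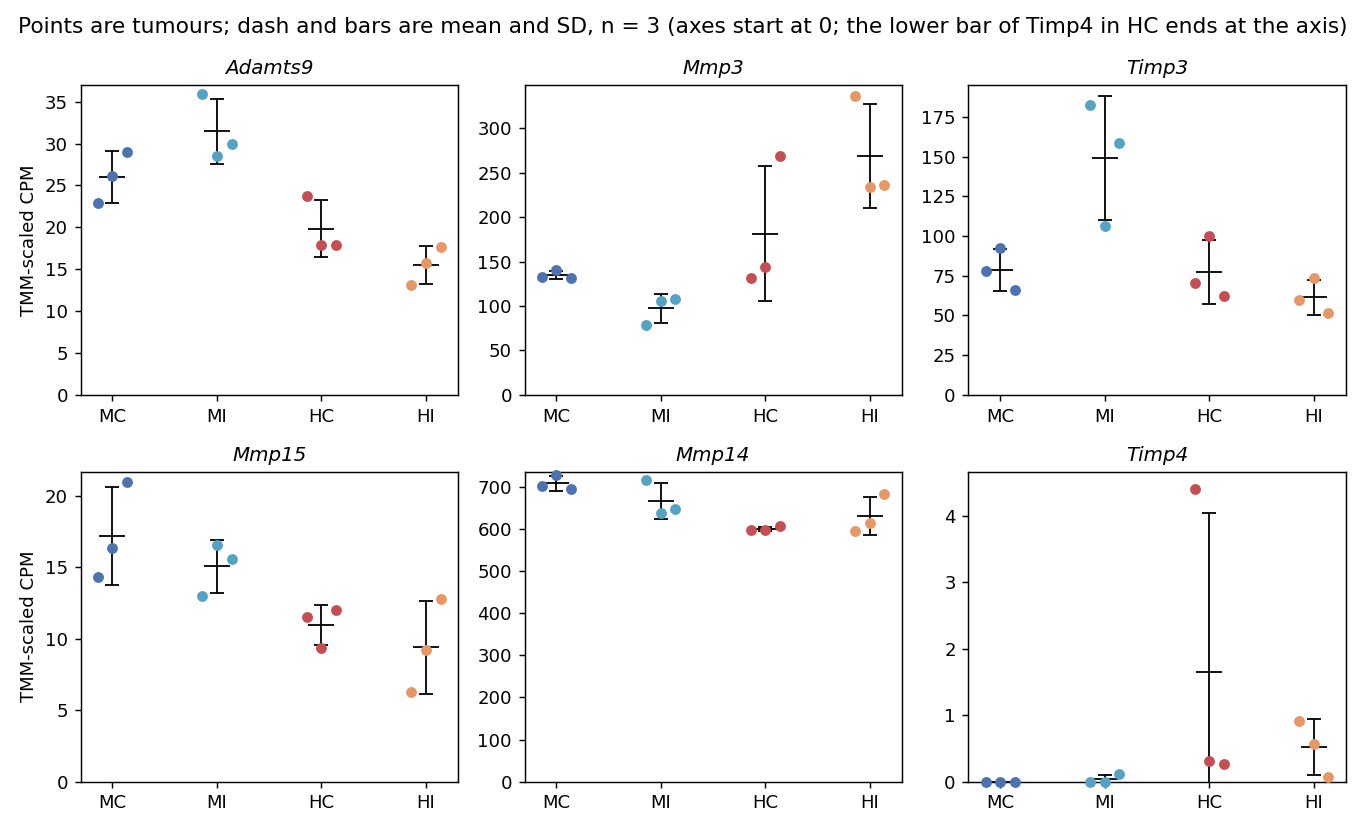
TMM-scaled CPM (linear axes from 0) of Adamts9, Mmp3, Timp3, Mmp15, Mmp14 and Timp4 by group; points are single tumours, dashes and bars are mean and SD (n = 3), and the lower bar of Timp4 in HC is cut at 0. Adamts9 and Mmp15 are lower and Mmp3 higher in chamber tumours, and Timp3 is highest in MI.

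Mmp3 belongs to a run of 10 MMP genes that lie side by side on mouse chromosome 9, in the order Mmp13, Mmp12, Mmp1b, Mmp3, Mmp1a, Mmp10, Mmp8, Mmp27, Mmp20 and Mmp7 in the RefSeq gene table of GRCm38.p6. No other protein-coding gene starts within the run in that table. The run was singled out after the values had been seen, and it is described without a test. Of its members, 8 were tested, and all 8 had an estimate above 0 at altitude both with vehicle and with IOX2, in mice that shared no library. Mmp1b reached the filter's level in 1 ambient and 6 chamber libraries, and Mmp27 in 2 and 4. Both passed through chamber libraries, so the count and the median of the 8 are not independent of the filter. Among all genes tested, 25.8% were above 0 in both comparisons. Among the 11 tested MMP genes elsewhere in the genome, 1 was (Mmp24, at the filter's level in 1 ambient and 2 chamber libraries). The median averaged log2 change of the 8 was 0.95, against -0.02 for all genes. In the altitude average 6 of the 8 had an unadjusted p under 0.05 and a higher estimate, against 8.64% of all genes. By edgeR 1 of the 8, Mmp3, was called, against 0.236% of all genes called higher. DESeq2 called 5 of the 8 (Mmp3, Mmp8, Mmp1a, Mmp10 and Mmp1b), against 5.2% of the genes it gave an adjusted p, in either direction.

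HI1 was the highest of the 12 libraries for 6 of the 8 (Mmp13, Mmp12, Mmp1b, Mmp3, Mmp10 and Mmp27), and the highest library was HC1 for Mmp1a and HC3 for Mmp8. Mmp13, a collagenase of fibroblasts and tumour cells, was at 200.3, 259.9 and 212 CPM in MC and 444, 282 and 533 in MI, and at altitude 243, 451 and 449 in HC and 629.7, 315 and 487 in HI. All MI libraries lay above all MC libraries, and HC1 lay inside the MC range. Mmp12, the elastase of macrophages, was at 94.8 to 117 CPM in MC, 156 to 179 in MI, 60.9 (HC1), 200.4 and 166 in HC, and 142 to 346 in HI. HC1 was the lowest and HI1 the highest of the 12. Macrophage markers, 8 of 8 detected, summed to 1521 to 2017 CPM in MC and 1450 to 1653 in MI, and at altitude 1383 to 1748 in HC and 1210 to 1453 in HI, and their part in the Mmp12 values was not tested. The stromelysin Mmp10, a close relative of Mmp3, was at 26.9 to 49.96 CPM in MC, 35.3 to 42.7 in MI, 33.6, 81.1 and 97.5 in HC, and 137, 53.7 and 57.4 in HI. Here too HC1 was in the ambient range, and all HI libraries were above it. The averaged changes were 0.48 for Mmp13, 0.39 for Mmp12 and 0.96 for Mmp10, with adjusted p = 0.278, 0.489 and 0.141 by edgeR.

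Mmp8, the collagenase stored in neutrophil granules, was at 3.32, 4.62 and 3.28 CPM in MC and 8.55, 4.42 and 6.53 in MI, and at altitude 8.71, 11.9 and 32.9 in HC and 15.4, 6.98 and 8.64 in HI. The MC and HC libraries did not overlap, and HC3 stood far above the rest. The log2 change of Mmp8 in HC against MC was 2.25 (SE 0.48, adjusted p = 0.191 by edgeR), the smallest p of any member in that comparison, and 1.46 without HC3. Neutrophil markers, 10 of 10 detected, summed to 152 to 200.3 CPM in MC, 170 to 264 in MI, 89.9 (HC1), 379 and 345 in HC, and 249 to 317 in HI. Their part in the Mmp8 values was not tested. Mmp25, a membrane-anchored MMP known from neutrophils, was at 4.44 to 7.51 CPM in MC and 4.305 to 7.02 in MI. At altitude it was at 1.41, 6.11 and 2.78 CPM in HC and 3.00, 2.52 and 6.87 in HI. The averaged change of Mmp25, -0.61, did not pass (adjusted p = 0.39 by edgeR). The part of neutrophils in the Mmp25 values was not tested.

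Mmp1a and Mmp1b, both counterparts of the human interstitial collagenase, were rare. Mmp1a was at 0.28 to 0.856 CPM in MC, 0.153 to 0.316 in MI, 0.685 to 2.51 in HC and 0.398 to 2.04 in HI. Mmp1b was at 0.0509 to 0.831, 0.057 to 0.17, 0.442 to 0.913 and 0.395 to 1.70 CPM in the same order. For both genes all HI libraries lay above all MI libraries. The log2 changes there were 2.34 (SE 0.70) and 3.08 (SE 0.88), with adjusted p = 0.219 and 0.214 by edgeR. These are sister genes, and how reads that fit both were counted is not given in the sources used here, so the split between them is uncertain. Mmp27 (0.0761 to 0.574 CPM) was near the filter in all groups.

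**Figure D3:**
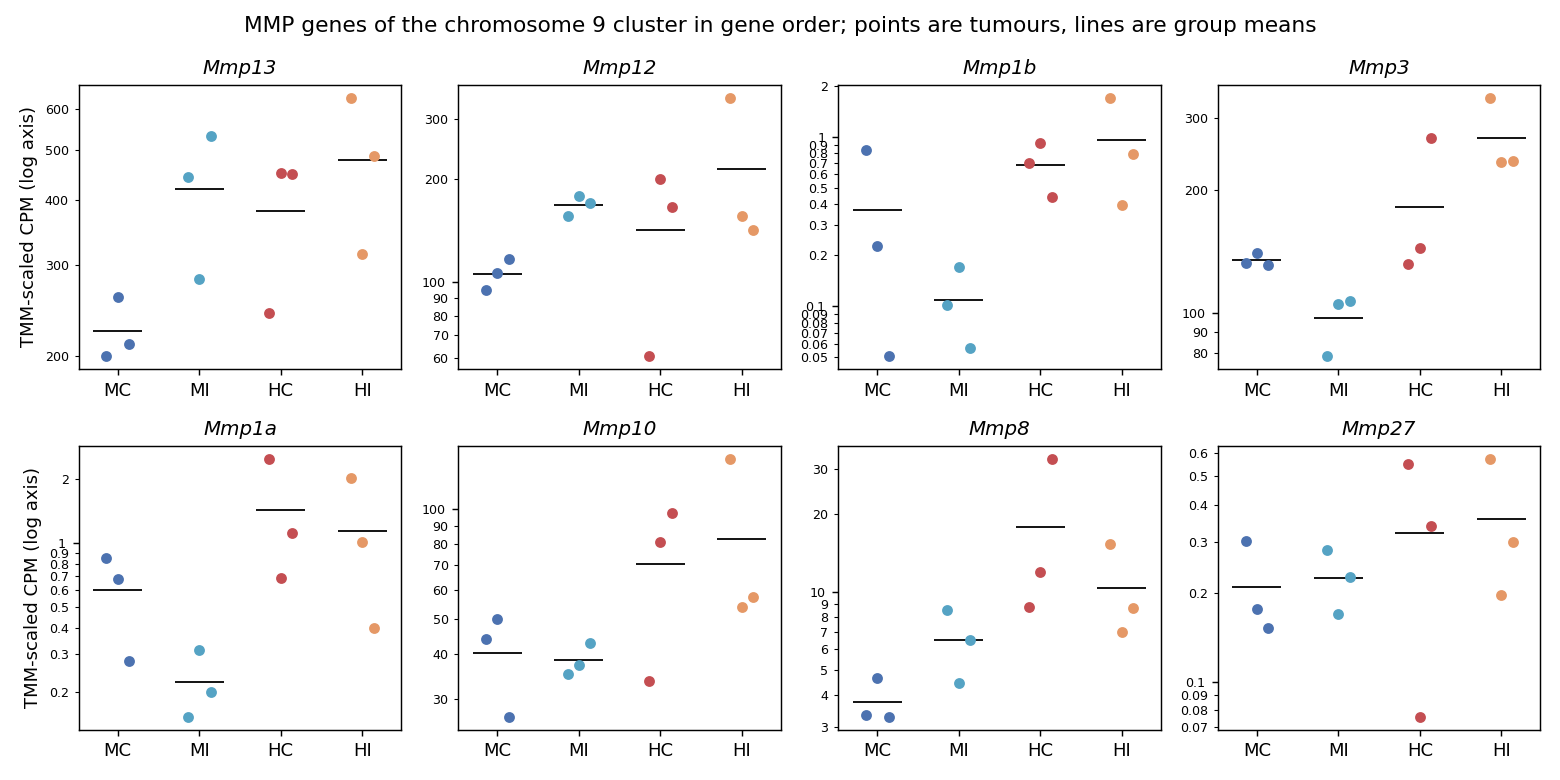
TMM-scaled CPM (log axes) of the 8 tested MMP genes of the chromosome 9 run, in gene order; points are single tumours and lines are group means. Group means of HC and HI lie above those of MC and MI respectively in all 8 panels, while HC1 lies within or below the MC range for Mmp13, Mmp12, Mmp1b, Mmp3 and Mmp10.

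The promoters of the run were read for the letters of a known MMP regulator. AP-1, the dimer of Fos and Jun proteins, is a textbook regulator of MMP genes through the letters TGANTCA. These letters were searched on both strands of RefSeq promoters of GRCm38.p6, each 300 bases from 250 before to 50 after a transcription start. The motif stood in 7.81% of 32851 promoters. Of the 44 members, 30 had a promoter in the table. The motif was in 7 of 9 members of the chromosome 9 run (Mmp13, Mmp12, Mmp1b, Mmp3, Mmp1a, Mmp10 and the barely detected Mmp7) and in 0 of 21 other members. Within the run it was not in Mmp8 or Mmp27. Members were counted as genes with the motif in any of their promoters, while the share of 7.81% counts single promoters. Windows around the motif in the 6 tested genes are shown to compare the surrounding bases, 5′ to 3′ on the gene's strand, with the AP-1 letters in capitals.
Mmp13: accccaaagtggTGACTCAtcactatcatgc
Mmp12: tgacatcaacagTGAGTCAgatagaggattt
Mmp1b: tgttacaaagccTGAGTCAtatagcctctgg
Mmp3: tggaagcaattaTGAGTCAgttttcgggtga
Mmp1a: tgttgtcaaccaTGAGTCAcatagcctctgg
Mmp10: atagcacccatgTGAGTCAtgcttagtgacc
The windows lie at chr9:7272467-7272497 (+ strand), chr9:7347318-7347348 (+), chr9:7388101-7388131 (- strand), chr9:7445764-7445794 (+), chr9:7464056-7464086 (+) and chr9:7502267-7502297 (+) of GRCm38.p6. The motif's first base was 35, 44, 93, 46, 73 and 63 bases before the start site in that order. The spelling was TGAGTCA in all but Mmp13, which had TGACTCA. A match is a description of these letters, not of binding.

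The whole promoter of Mmp3, the member that rose, is shown with its single AP-1 motif in capitals. It covers chr9:7445572-7445871 (+ strand, GRCm38.p6).
Mmp3: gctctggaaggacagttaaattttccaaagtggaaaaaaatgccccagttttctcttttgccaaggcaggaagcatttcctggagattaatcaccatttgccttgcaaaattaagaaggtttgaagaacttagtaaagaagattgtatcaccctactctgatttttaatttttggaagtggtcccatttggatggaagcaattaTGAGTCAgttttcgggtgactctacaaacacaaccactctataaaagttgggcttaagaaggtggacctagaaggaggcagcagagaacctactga
The promoter of Adamts9, the member that fell, is shown for contrast. It covers chr6:92943485-92943784 (- strand), and the capitals mark the letters GCGTG, a core bound by hypoxia-inducible factors. That core was found on either strand in 32.4% of all promoters.
Adamts9: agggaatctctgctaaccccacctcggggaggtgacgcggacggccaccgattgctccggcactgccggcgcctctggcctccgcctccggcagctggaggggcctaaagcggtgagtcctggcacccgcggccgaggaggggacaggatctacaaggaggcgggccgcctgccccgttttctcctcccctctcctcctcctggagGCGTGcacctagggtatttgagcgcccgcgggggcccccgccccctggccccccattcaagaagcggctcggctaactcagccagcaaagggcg
This core was in 12 of the 30 members with a promoter, and the alternative core ACGTG was in 8 of 30, against 19.6% of all promoters. Here too members were counted as genes and the shares as single promoters. Neither core was in the Mmp3 promoter.

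In mice given vehicle, no member passed in HC against MC by edgeR, as for all genes (0% called). At an unadjusted p under 0.05 there were 5 higher and 4 lower of 38, against 6.14% and 5.84% of all genes (12% in either direction). DESeq2 called 2 members (Mmp8 and Timp4), against 1.89% of all genes with an adjusted p, and limma on FPKM called 0. With the replicate number as a block edgeR called 13 genes and 0 members. The median log2 change was 0.29 over the members and -0.01 over all genes. The groups did not overlap for 7 members, 4 higher (Mmp8, Mmp19, Mmp23 and Timp4) and 3 lower (Mmp14, Mmp15 and Adamts10), against 10.3% higher and 11.4% lower among all genes (21.7% in all). Mmp14, the activator of Mmp2, was at 701, 729 and 695 CPM in MC and 599, 597 and 607 in HC. The drop was small, a log2 change of -0.24 (SE 0.08, adjusted p = 0.283 by edgeR). In MI and HI Mmp14 was at 638 to 717 and 596 to 683 CPM, which overlap.

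Mmp15, another membrane-anchored MMP, was the only member whose 6 chamber libraries all lay below its 6 ambient libraries. That holds for 0.897% of all genes, the reverse for 1.05% and either for 1.95%. It was at 14.3, 16.3 and 20.9 CPM in MC and 13.0, 16.6 and 15.6 in MI, and at altitude 11.5, 9.38 and 12.0 in HC and 6.24, 9.20 and 12.8 in HI. The averaged log2 change was -0.66 (SE 0.17, adjusted p = 0.09 by edgeR) and it did not pass; with the replicate number as a block the adjusted p = 0.0487 by edgeR. The changes with vehicle (-0.65) and with IOX2 (-0.68) were close, with an interaction of -0.03 (SE 0.33). Adamts10, which binds fibrillin, was at 19.3 to 22.8 CPM in MC and 13.0 to 17.1 in HC. Mmp19, a secreted MMP of broad substrate range, was at 23.2 to 32.1 CPM in MC and 36.0 to 37.7 in HC.

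Timp4, an inhibitor gene known from heart and fat tissue, was at 0 counts in all MC libraries and in MI1 and MI2, and at 4 counts in MI3. In HC it was at 144, 12 and 10 counts (4.40, 0.304 and 0.26 CPM), and in HI at 35, 23 and 3 counts. Against the limit of 3 counts per library that 0 allows, the HC mean of 1.66 CPM was at least 21.8-fold higher than MC. Without HC1 the bound was 3.72-fold. The edgeR test did not pass in HC against MC (adjusted p = 0.238). The summed level of 5 adipocyte markers, all detected in each library, was 394 CPM in HC1, 233 in HC2, 51.7 in HC3, 142 in HI1, 194 in HI2 and 27.6 in HI3, against 25.1 to 98.2 in the ambient libraries. Leptin (Lep), a defining fat-cell gene, was at 4.25 CPM in HC1 and 0.0252 to 1.28 CPM in the others. Whether fat cells carried the Timp4 signal was not tested.

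In mice given IOX2, no member passed in HI against MI by edgeR, as for all genes (0% called). An unadjusted p under 0.05 was found for 5 higher and 6 lower of 38, against 6.77% and 8.43% of all genes (15.2% in either direction). DESeq2 called 6 members, Mmp3, Mmp1a and Mmp1b higher and Adamts9, Adamts4 and Timp3 lower, against 2.4% of all genes with an adjusted p, and limma on FPKM called 0. Of the tested members, 12 did not overlap, 6 in each direction, against 8.02% higher and 6.61% lower among all genes (14.6% in all). Those higher were Mmp1a, Mmp1b, Mmp3, Mmp10, Adamts14 and Timp2, and those lower Mmp15, Mmp17, Adamts3, Adamts4, Adamts9 and Timp3. Adamts14, a procollagen-trimming enzyme, was at 16.2 to 19.5 CPM in MI and 19.99 to 29.0 in HI, a log2 change of 0.36. Mmp17, a membrane-anchored MMP, was at 2.45 to 5.596 CPM in MI and 1.59 to 2.40 in HI.

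Timp3, an inhibitor held in the matrix that also blocks ADAMTS aggrecanases, stood out in MI. It was at 78.0, 92.4 and 66.1 CPM in MC and 182.5, 106 and 159 in MI, and at altitude 70.1, 100.0 and 62.0 in HC and 59.8, 73.3 and 51.4 in HI. All MI libraries lay above all others, and MC, HC and HI overlapped. The log2 change was 0.92 (SE 0.23, adjusted p = 0.492 by edgeR) in MI against MC and -1.28 (SE 0.23, adjusted p = 0.105 by edgeR) in HI against MI. These comparisons share the MI libraries, so they are not independent. Adamts4, an aggrecanase that Timp3 blocks, was at 65.9 to 85.4 CPM in MC and 76.2 to 117 in MI, and at altitude 64.7 to 86.2 in HC and 54.0 to 70.2 in HI. Mural-cell markers summed to 338 to 382 CPM in MC and 378 to 556 in MI, and at altitude 330 to 375.5 in HC and 294 to 311 in HI. Their part in the Timp3 values was not tested.

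**Figure D4:**
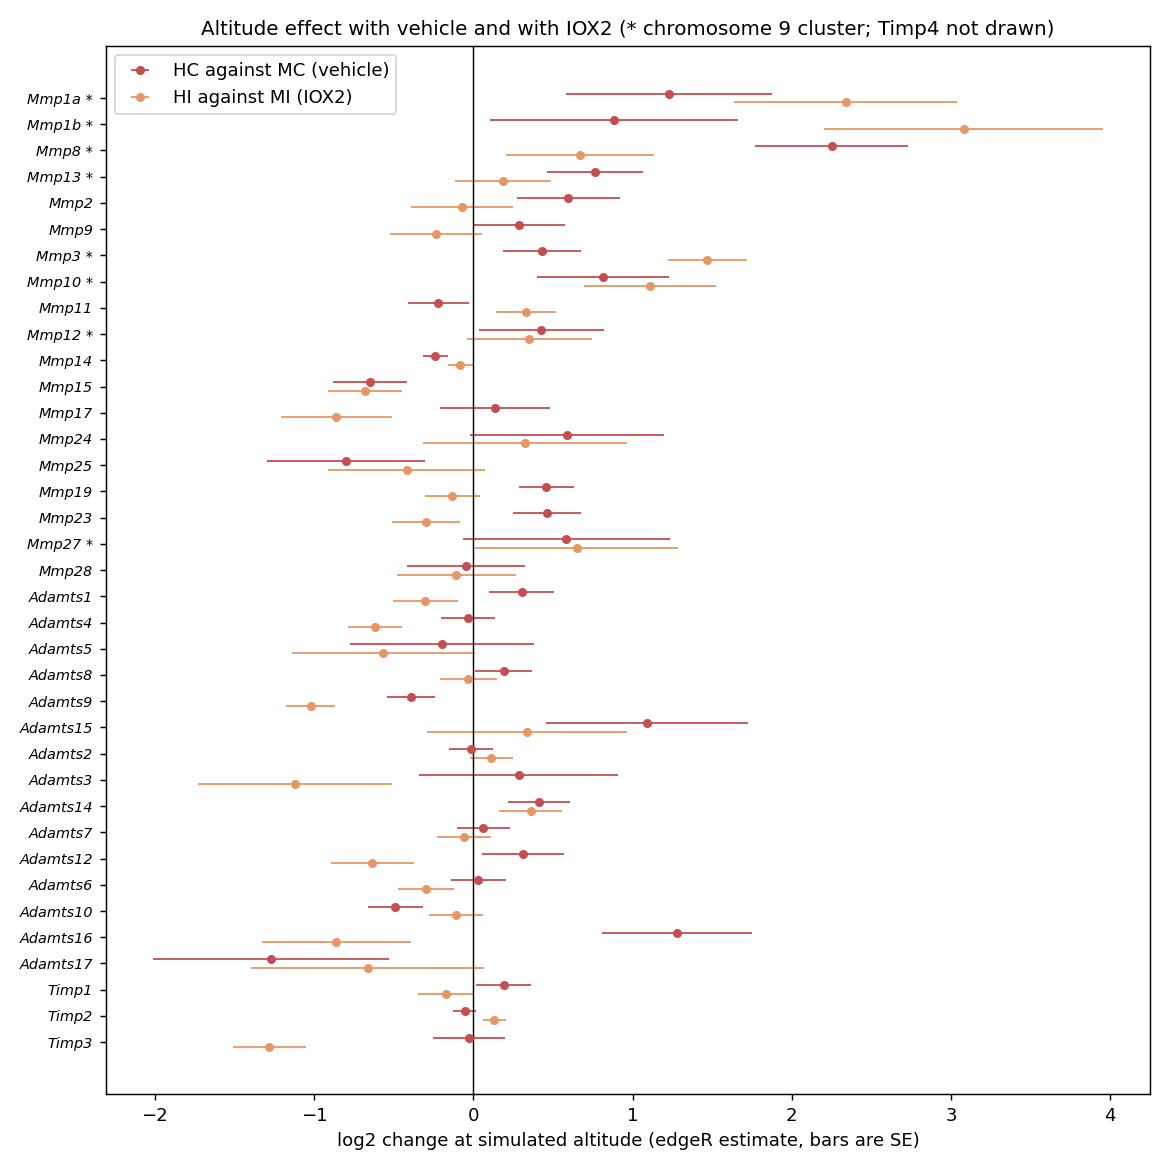
edgeR log2 change at simulated altitude (horizontal axis, bars are SE) of 37 tested members with vehicle (HC against MC) and with IOX2 (HI against MI); asterisks mark the chromosome 9 run and Timp4 is not drawn because its MC libraries are at 0. The 8 marked genes lie right of 0 in both comparisons, and Timp3, Adamts9 and Adamts4 lie farther left with IOX2.

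In the comparisons of IOX2 with vehicle no member was called, and few genes of any kind were. At ambient altitude (MI against MC) edgeR called 0 of 38 members, against 0.0262% of all genes, and 5 higher and 1 lower had an unadjusted p under 0.05, against 5.61% and 3.78% of all genes (9.39% in either direction). The groups did not overlap for 4 higher (Mmp12, Mmp13, Mmp23 and Timp3) and 3 lower (Mmp3, Mmp11 and Timp2), against 4.75% and 6.32% of all genes (11.1% in all). DESeq2 and limma on FPKM also called 0. The 3 members with the smallest p were Timp3, Mmp13 (log2 0.91, SE 0.30) and Adamts6 (log2 0.48, SE 0.17), each with an adjusted p = 0.492 by edgeR. Adamts6, a protease that acts on fibrillin-rich matrix, was at 18.6 to 23.5 CPM in MC and 21.9 to 36.7 in MI. Within the chromosome 9 run 4 estimates lay above 0 there and 4 below, and Mmp3 was among the latter (log2 -0.47). Timp2 was lower in each MI library, at 524 to 572 CPM against 620 to 653 in MC.

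At simulated altitude (HI against HC) edgeR called 0 of 38 members, as for all genes (0% called), and DESeq2 and limma on FPKM called 0. An unadjusted p under 0.05 was found for 1 higher (Mmp3) and 2 lower (Adamts16 and Adamts9), against 2.33% and 2.51% of all genes (4.85% in either direction). The groups did not overlap for 0 higher and 2 lower (Mmp17 and Adamts9), against 5.74% and 5.61% of all genes (11.4% in all). Adamts16, a little-studied ADAMTS gene, was at 7.92, 6.67 and 2.86 CPM in HC and 4.12, 1.43 and 1.77 in HI, which overlap. Averaged over altitude, IOX2 gave 0 called members by edgeR, against 0.0393% of all genes, and DESeq2 and limma on FPKM also called 0. Mmp13 (log2 0.62, SE 0.21), Adamts6 (0.31, SE 0.12) and Mmp12 (0.63, SE 0.28) had an unadjusted p under 0.05, against 5.12% of all genes (2.7% higher and 2.42% lower), with an adjusted p = 0.759 by edgeR for each.

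The test of whether altitude acted differently with IOX2 called 0 of 38 members by edgeR, as for all genes (0% called), and DESeq2 and limma on FPKM called 0. In that interaction 1 member had an unadjusted p under 0.05 above 0 (Mmp3) and 8 below 0, against 8.21% of all genes in either direction, 4.04% above 0 and 4.17% below 0. The 3 smallest p were those of Timp3 (log2 -1.25, SE 0.32), Adamts16 (-2.14, SE 0.67) and Mmp3, each with an adjusted p = 0.596 by edgeR. Adamts9, Adamts12, Mmp23, Adamts4, Mmp8 and Mmp19 made up the others. Of the 15 tested ADAMTS genes, 12 had an interaction estimate below 0, or 80%, against 68.4% of the tested members and 52.4% of all genes. Also below 0 were 8 of 8 fibroblast, 6 of 6 endothelial, 5 of 6 mural, 5 of 5 adipocyte and 5 of 5 skeletal muscle markers. So were 4 of 4 T cell, 2 of 2 tested B cell and 8 of 10 neutrophil markers. Fewer lay below 0 for macrophage (4 of 8), epithelial tumour (1 of 6), mast cell (1 of 5) and tested keratinocyte markers (0 of 3). The part of these cells in the interaction estimates was not tested. Adamts12, which cuts the cartilage protein COMP, was at 35.1 to 43.8 CPM in MC and 77.6, 36.1 and 75.4 in MI, and at altitude 43.1 to 63.9 in HC and 33.95 to 47.3 in HI. MI1 and MI3 were high and MI2 was not.

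MI1 and MI3 were also the 2 highest libraries for Adamts5. Adamts5, the main aggrecanase of mouse cartilage, was at 20.8, 5.29 and 18.3 CPM in MI, and 4.10 to 14.6 CPM in the other groups. Adamts1 reached 55.5 CPM in MI1 and lay at 27.8 to 51.9 CPM elsewhere. MI1 also carried the highest fibroblast sum of MI, 10450 CPM against 7037 in MI2, and the highest endothelial and mural sums of all libraries, 401 and 556 CPM. It stood apart in B cell markers, at 629 CPM against 1.39 to 17.9 in the other libraries, and was highest in T cell and skeletal muscle markers, at 64.2 and 385.5 CPM. In HC1, where the fibroblast sum reached 12450 CPM, Adamts15 was at 28.9 CPM against 3.33 to 13.7 in all other libraries, and Mmp2, a gelatinase of fibroblasts, was at 279 CPM against 89.8 to 234. The part of these cells in the values was not tested.

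**Figure D5:**
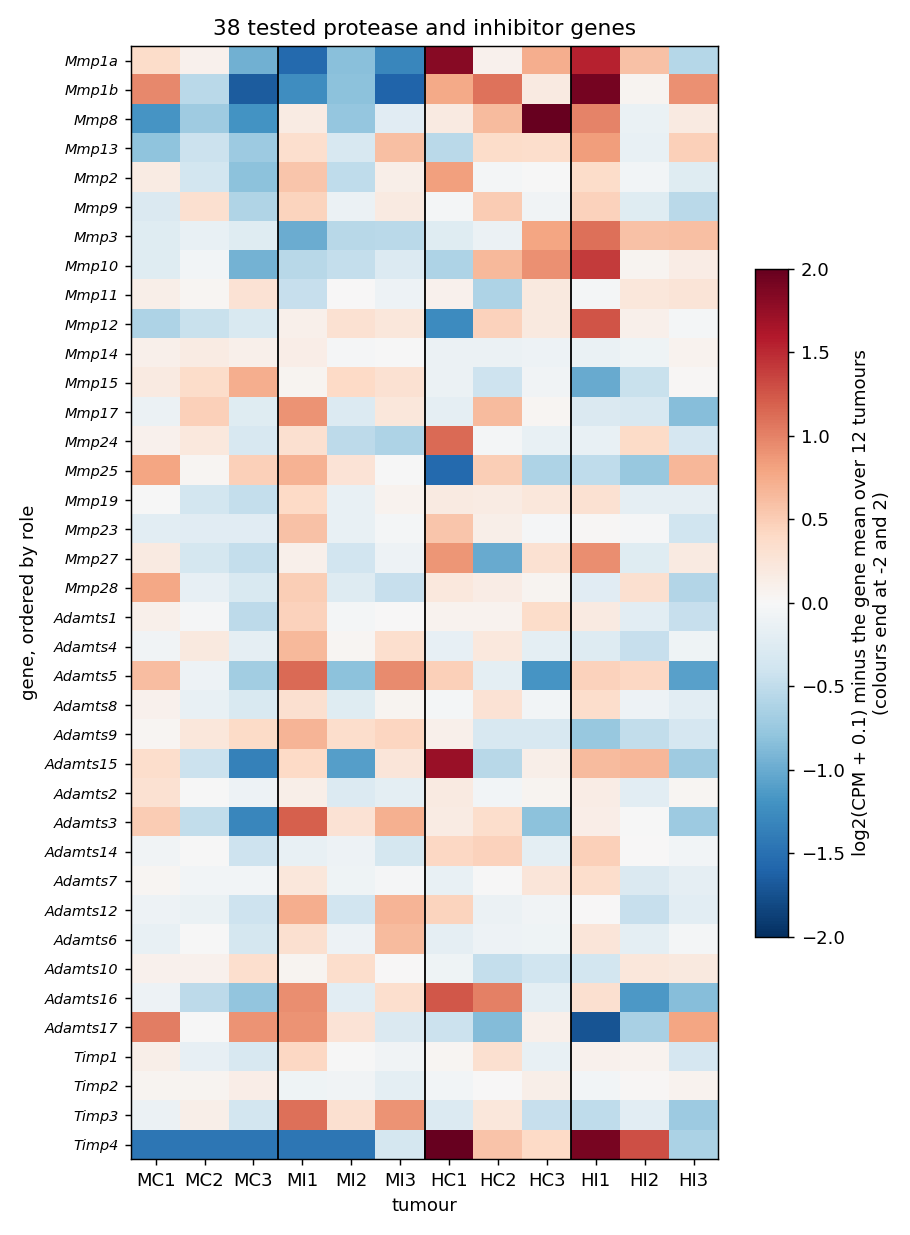
Heat map of the 38 tested members (rows, by role) in the 12 tumours (columns), as log2(CPM + 0.1) minus the gene's mean over 12 tumours, with colours ending at -2 and 2. HI1 and HC3 are high for several genes of the chromosome 9 run, and MI1 and MI3 for Adamts5, Adamts12 and Timp3.

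The remaining members are given by their ranges. Mmp9 and Mmp2 overlapped in all comparisons, with averaged altitude changes of 0.03 and 0.26 on the log2 scale. Timp1 (72.3 to 121 CPM) and Timp2 (524 to 653 CPM) had averaged altitude changes of 0.01 and 0.04. Adamts2, the main procollagen-trimming enzyme, ran from 63.2 to 94.4 CPM, Adamts7 from 13.96 to 21.9 and Adamts8 from 24.3 to 38.03. Mmp11, a stromelysin of tumour stroma, ran from 34.05 to 63.7 CPM, Mmp23 from 6.75 to 13.4 and Mmp28 from 1.29 to 3.48. Adamts3, Adamts17 and Mmp24 stayed at or below 1.04, 0.932 and 0.52 CPM.

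Genes that act with these proteases were read from a list of 49, of which 42 were tested. In the altitude average 1 was called higher and 1 lower by edgeR, against 0.236% and 0.262% of all genes, and 0 in each of the other 6 comparisons. Thbs1, whose matrix protein thrombospondin binds MMPs and restrains vessel growth, was at 675 to 768 CPM in MC and 732 to 923 in MI, and at altitude 374 to 529.6 in HC and 482.5 to 694 in HI. Its log2 change was -0.59 (SE 0.11, edgeR adjusted p = 0.0464). Sdc1, a cell-surface proteoglycan that MMPs shed, was at 345 to 380.4 CPM in MC and 321 to 339 in MI, and at altitude 368 to 415 in HC and 431 to 524 in HI. Its log2 change was 0.32 (SE 0.06, edgeR adjusted p = 0.0494). Plau, the urokinase that starts the plasmin cascade upstream of several MMPs, was at 189 to 254 CPM in MC and 199 to 227.5 in MI, and at altitude 299 to 445 in HC and 252 to 373 in HI (log2 0.58, adjusted p = 0.0702 by edgeR). At an unadjusted p under 0.05 the averaged change was higher for 11 and lower for 8 of the 42, against 8.64% and 8.65% of all genes. The list's median log2 change was 0.01. A2m, a broad protease inhibitor of plasma, and Vwf, the clotting factor that Adamts13 cuts, had all 6 chamber libraries above all 6 ambient ones. That is 2 of the 42, against 1.05% of all genes, and the reverse held for 0 of the 42, against 0.897%. A2m was at 2.47 to 4.12 CPM in ambient and 4.18 to 8.29 in chamber tumours (log2 0.86, adjusted p = 0.0731 by edgeR). Vwf was at 12.4 to 20.03 and 20.3 to 36.6 CPM (log2 0.78, adjusted p = 0.0702 by edgeR). Neither passed. Reck, a membrane-anchored MMP inhibitor, was at 9.79 to 14.2 CPM in MC and 11.3 to 12.5 in MI, and at altitude 8.53 to 11.01 in HC and 8.90 to 9.99 in HI.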

How the data were processed

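Total RNA of 12 tumours was sequenced as pairs of 150 bases, per the labels. The submitters' processing notes name build GRCm39, HISAT2 2.1.0, HTSeq 0.11.2, fastp 0.20.1, R 3.5.1 and DESeq2 1.22.2, with no roles. No source used here gives the annotation or the strand setting. The deposited table of raw counts holds 35434 genes. The FPKM values are the authors' own; the gene length each implies was whole within 0.01 base for 100% of values above 0. The test on counts was that of edgeR 4.0.16 in R 4.3.3 (TMM, filterByExpr, 15269 genes, quasi-likelihood fit of 12 libraries with 1 mean per group, Benjamini-Hochberg adjustment, called under 0.05). The 7 comparisons were HC against MC, HI against MI, MI against MC, HI against HC, their interaction, and the altitude and IOX2 averages. CPM values are TMM-scaled. The test was also run on simulated independent counts with changes placed in HC, read in HC against MC alone. The altitude average was not simulated, and the outcome of that run is not given here.

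Alternatives were DESeq2 1.42.0, its size factors, other filters, limma 3.58.1 on log2(FPKM + 0.1) and log2(FPKM + 1), a replicate block, 6-library fits and leaving out each library. Members, lists and the chromosome 9 run were chosen with earlier results of these data known. Named are all members, with values for the TIMPs, members called, the 3 smallest p in each comparison and the 10 highest FPKM; other values were chosen after they were seen. Deviations from the group mean correlated at 0.278, 0.153 and 0.209 between HC and MC libraries that carry the same number, though the labels give different mice. Between HI and MI libraries of the same number they correlated at 0.257, 0.0717 and 0.131, while HI3 and MI2 reached 0.214. In MI against MC and in HI against HC some same-number pairs were below 0. Promoters came from RefSeq GRCm38.p6, matched by symbol for 30 of 44 members.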

Additional observations from a re-analysis of the deposited data

How the results depend on the processing

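With DESeq2, 2 members were called in HC against MC, 6 in HI against MI and 10 in the altitude average, against 1.89%, 2.4% and 5.2% of all genes with an adjusted p. Without a filter on low counts, 3 were called in HI against MI and 4 in the altitude average, against 0.0658% and 0.683% of all genes. On FPKM, limma called 1 member in the altitude average with a pseudocount of 0.1 (Mmp3) and 0 with a pseudocount of 1, against 0.36% and 0.0917% of all genes. DESeq2 size factors and the filter of at least 1 CPM in 3 libraries left 2 called there, Adamts9 and Mmp3. With the replicate block the altitude average had 3 called members, the same plus Mmp15 (log2 -0.67, adjusted p = 0.0487 by edgeR), against 155 of all genes (1.02%), and the block changed no other count of members. Leaving out 1 library gave 0 to 5 called members in the altitude average and 0 to 5 in HI against MI, the most without HI3 (2.17% of all genes) and without MI2 (3.34%), and 0 in each of the other 5 comparisons. The cause of these differences was not tested. The log2 changes of the 3 leading members of each comparison kept their sign under all alternatives run. The 8 tested genes of the chromosome 9 run, counted after their values were seen, stayed above 0 in the altitude average under each omission of a library; 7 to 8 did so in HC against MC and 6 to 8 in HI against MI. Depth limits the rare genes: Mmp1a, Mmp1b, Mmp27, Mmp24, Adamts3 and Timp4 rest on few counts per library.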
